A study of Caenorhabditis briggsae with 13 samples.

Results

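The 95-cell embryo of the nematode Caenorhabditis briggsae was compared with the 55-cell embryo, the stage sampled before it. The comparison rests on 5 of the 13 arrays of a developmental series, 2 at 95 cells and 3 at 55 cells, taken 120 and 80 min after the 4-cell stage. Arrays were assigned by the stage in their titles. All embryos were of strain AF16, with no treatment or mutation named in the labels, and each array carried Cy3-labelled copies of total RNA pooled from 50 whole embryos. The copies came from successive rounds of in vitro transcription, because so few embryos give little RNA. The other arrays, used to follow the same genes, were 3 at 190 cells (160 min), 3 at 28 cells (55 min) and 2 at 4 cells (0 min).

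A nematode embryo starts with RNA that the mother loaded into the oocyte. This maternal RNA is cleared as the embryo's own genes are transcribed, which is called zygotic expression. In the related species C. elegans, cells of embryos at such stages move inwards at gastrulation and are committed to gut, muscle, pharynx, epidermis and nerve cells by transcription factors, many of which are expressed only briefly. RNA of whole embryos does not resolve these cells, and fewer cells of a type cannot be told apart from less RNA per cell. The genes are numbered by WormBase identifiers that the tables used here do not pair with symbols, so cell types and pathways were not analysed here.

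A level below is the log2 intensity of a gene minus the 75th percentile of its own array, averaged over the gene's probes, so that 0 marks the 75th percentile of all gene probes. Over the 13443 genes tested, the 5 arrays had r = 0.970 within the 95-cell stage and between 0.966 and 0.979 within the 55-cell stage, against 0.878 to 0.936 between the stages. These correlations are across genes, which are not independent replicates. The stage tags of 95-cell A, 55-cell A, 190-cell B and 28-cell B read 4-cell, against their titles. Their highest correlations with a 4-cell array were 0.733 for 95-cell A, 0.744 for 55-cell A, 0.709 for 190-cell B and 0.783 for 28-cell B, each below the lowest with an array of the titled stage (0.970, 0.966, 0.949 and 0.968). The 2 arrays at 95 cells differed by over 2-fold for 13.7% of genes, and pairs at 55 cells for 8.41% to 17.4%. 95-cell A was the least sensitive of the 5 arrays. Its share of probes well above background, as flagged by the scanner software, was 47.5%, against 64.9% on 95-cell B and 56.1%, 54.1% and 65.2% on 55-cell A, B and C. 95-cell B and 55-cell C were scanned on a later date than the other 3 arrays, so each stage held arrays of both dates.

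Between 55 and 95 cells, 993 genes rose and 1661 fell. Together these were 19.7% of the genes tested, 7.39% upwards and 12.4% downwards (limma moderated test, Benjamini-Hochberg adjusted p under 0.05). Fitted rises ran from 1.67-fold upwards with a median of 3.31-fold, and fitted falls had a median of 3.42-fold. At least 2-fold changes were fitted for 901 risers and 1557 fallers, 8-fold ones for 136 and 277, and 16-fold ones for 48 and 130. The median standard error of a change was 0.387 on the log2 scale. The arrays of the stages did not overlap for 991 of the risers and 1657 of the fallers. Over all tested genes both 95-cell arrays lay above every 55-cell array for 20.3%, and below every 55-cell array for 31%.

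The balance between rises and falls depended on how arrays were scaled. The median tested gene changed by -0.19 on the log2 scale, and relative to that shift 1316 genes lay above and 1274 below. Centring each array on its median gene gave 1367 rises and 1279 falls, and normexp background correction with quantile normalization 1156 and 1226. Of the scalings run, that on spike-in probes moved the counts most, to 485 called genes, 210 up and 275 down, with a median change of 0.052. The counts also rested on few arrays: 1392 genes were called without 95-cell B, 1693 without 95-cell A, and 1173 without the arrays whose tag contradicts the title. The count of falls was 1094 without 55-cell A.

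**Figure D1:**
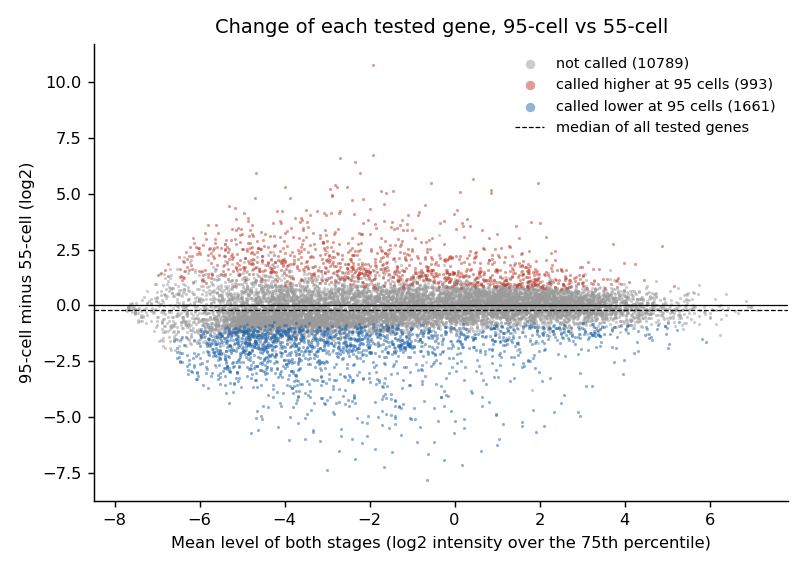
Each point is a tested gene, with its mean level over both stages on the x axis (log2 intensity over the array's 75th percentile) and its change, 95-cell minus 55-cell, on the y axis (log2). The 993 genes called higher are red, the 1661 called lower blue and the others grey, and the dashed line marks the median change of -0.19.

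Among genes that passed the filter, calls were less frequent in bright ones. When genes were ordered by their mean level over all stages and divided into 3 bins of 4481 genes, 8.06% of the dimmest bin rose and 16.9% fell. In the middle bin 9.42% rose and 13.7% fell, and in the brightest bin 4.69% and 6.49%. Changes of called genes were also smaller in the brightest bin, with a median rise of 1.15 and a median fall of -1.38 on the log2 scale, against 2.09 and -1.86 in the dimmest. The brightest bin had the smallest standard errors (median 0.328, against 0.442 in the dimmest). The difference between bins was not tested. The filter kept a probe only if every array of 1 or more stages had it above background. Genes with a low mean were thus selected for a stage at which they were brighter, which favours change in the dimmer bins. With no filter on dim probes 7.64% of 19524 genes were called, against 19.7% of 13443.

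Few genes were detected at one stage and not at the other. 38 genes were well above background on both 95-cell arrays and on none of the 55-cell arrays. Of these 38, 34 were called as rises, against 7.39% of all tested genes. Detection and change were read on the same arrays, so a call in that direction was largely built in. All but 2 of the 38 were also undetected on the 28-cell arrays with flags, as were 964 of all 13443 tested genes. On every 190-cell array 34 were detected, as were 12191 of all tested genes, a like share. The gain could be given as a lower limit for 37 genes, with a middle value of at least 3.14-fold and an upper end of at least 482-fold, counting the 55-cell probe at the scanner's detection limit where it lay below it. In the other direction, 115 genes were detected on all 3 arrays at 55 cells and on neither at 95 cells. Of these 115, 100 were called as falls, again largely built in, against 12.4% of all tested genes. Of the 115 genes, 91 were detected on both 28-cell arrays with flags, 100 on neither 4-cell array and 70 on no 190-cell array. Over all 13443 tested genes these counts were 11780, 3553 and 339, so detection at 28 cells was no more frequent among the 115. Their median fall was at least 2.30-fold and the largest at least 30.4-fold, over 111 genes with a limit.

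The count of losses rested on 95-cell B, the more sensitive array of that stage: without it, 1457 genes were detected on all 55-cell arrays and not on the remaining 95-cell array. Without 95-cell A, 157 genes were gained, and without 55-cell C 156. Within the first scan date alone the numbers were 164 gains and 1466 losses.

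The largest changes that met a rule on detection, probes and overlap were followed gene by gene. 559 risers and 678 fallers had every kept probe above background on the 5 arrays, kept probes that changed in the same direction where there were several, and no overlap between stages. The largest fitted changes of all called genes, a rise of 1774-fold and a fall of 227-fold, did not meet this rule. Of the 559 risers that met it, WBGene00025774 rose most. The 95-cell arrays had levels of 3.13 and 3.40, against -3.36, -2.08 and -1.72 for 55-cell A, B and C. The 95-cell arrays lay close together and far above the 55-cell arrays, which spread more widely. The change was 50.4-fold (log2 change 5.66, SE 0.474, limma adjusted p = 7.78e-06), from probe A alone. The gene's other probe, B, had been left out by the filter because it was above background on 0 of the 12 arrays with flags, and it changed by -0.12. With both probes averaged the change was 6.82-fold (log2 change 2.77, limma adjusted p = 0.00458).

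WBGene00026396 rose almost as far. Levels were 4.67 and 4.78 in 95-cell embryos, against -2.1, -0.061 and -0.19 in 55-cell embryos, of which 55-cell A was the lowest. The rise was 45.5-fold (log2 change 5.51, SE 0.546, limma adjusted p = 2.56e-05), again from probe A alone. Its probe B was above background on 2 of the 12 arrays, changed by 0.14 and had been left out, and the average of both probes changed by 7.09-fold (log2 change 2.83, limma adjusted p = 0.000224). Both genes had also been called higher at 55 than at 28 cells, with log2 changes of 1.68 for WBGene00025774 and 1.58 for WBGene00026396 (limma adjusted p = 0.0107 and 0.0292). From 95 to 190 cells their log2 changes of 1.11 and 1.06 did not pass the test (limma adjusted p = 0.233 and 0.348). Stage means are given with SDs over 2, 3, 3, 2 and 3 arrays, in the order of development. WBGene00025774 averaged -5.63 ± 0.052 in 4-cell embryos, where neither array was above background, -4.06 ± 0.66 in 28-cell, -2.39 ± 0.86 in 55-cell, 3.27 ± 0.19 in 95-cell and 4.37 ± 0.33 in 190-cell embryos. WBGene00026396 averaged -3.72 ± 0.45, -2.37 ± 0.55, -0.78 ± 1.14, 4.72 ± 0.074 and 5.79 ± 0.38 over the same 5 stages. From 28 to 190 cells, stages that share no array with the comparison but enclose it, the log2 changes were 8.44 and 8.15 (limma adjusted p = 7.22e-09 and 2.86e-08).

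WBGene00029637 fell most. The 95-cell arrays had levels of -2.72 and -4.06, against 4.39, 4.27 and 2.64 for 55-cell A, B and C. 55-cell C was the lowest at its stage, yet stood far above both 95-cell arrays. The log2 change was -7.16 (SE 0.562, limma adjusted p = 5.12e-06), a fall of 143-fold, and its probes changed by -7.02 and -7.30. WBGene00029281 had -2.28 and -3.02 at 95 cells, against 4.31, 4.20 and 3.18 at 55 cells, a fall of 93.3-fold (log2 change -6.54, SE 0.452, limma adjusted p = 2.33e-06).

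Both fallers had risen steeply earlier. WBGene00029637 averaged -0.51 ± 0.041 in 4-cell embryos, 5.39 ± 0.36 in 28-cell, 3.77 ± 0.97 in 55-cell, -3.39 ± 0.95 in 95-cell and -4.26 ± 0.68 in 190-cell embryos. For WBGene00029281 the stage means were -0.27 ± 0.35, 4.67 ± 0.26, 3.89 ± 0.62, -2.65 ± 0.52 and -4.35 ± 0.71. Their log2 changes from 4 to 28 cells were 5.90 and 4.94 (limma adjusted p = 1.72e-06 and 1.21e-06), so that the fall followed a pulse of expression in both.

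**Figure D2:**
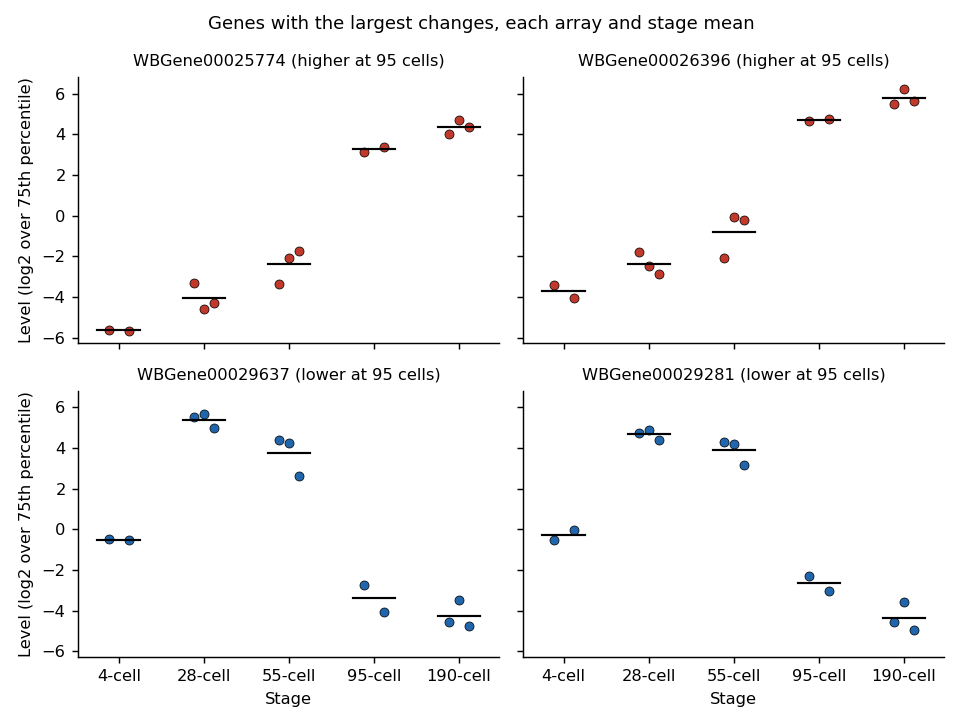
Levels of the 2 risers (probe A alone) and 2 fallers (both probes) with the largest changes that met the naming rule, on each of the 13 arrays (points) with the stage mean (bars), in log2 intensity over the array's 75th percentile. The risers average 3.27 and 4.72 at 95 cells, against -2.39 and -0.78 at 55 cells, and the fallers peak at 28 cells and lie below their 4-cell level from 95 cells on.

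The pattern of the fallers held for most genes that fell. The comparisons of 28 with 4 cells and of 190 with 28 cells share no array with that of 95 with 55 cells. They describe the called genes on other samples. The interval from 28 to 190 cells contains that from 55 to 95 cells, so it takes in the same change again. A call in the same direction there follows in part from the choice of genes. Of the 1661 genes that fell, 1106 (66.6%) had been called higher at 28 than at 4 cells, whereas 25% of all tested genes had. Only 156 (9.39%) had been called lower, against 30.7% of all genes. Most ended lower: 1469 (88.4%) were lower at 190 than at 28 cells, against 28.8% of all tested genes, and 29 (1.75%) were higher, against 25%.

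Genes that rose showed the opposite end of the course. 926 of 993 (93.3%) were higher at 190 than at 28 cells, an interval that contains their rise, against 25% of all tested genes. Another 15 (1.51%) were lower, against 28.8% of all tested genes. Their earlier course was mixed. Between 4 and 28 cells 189 (19%) had risen, 352 (35.4%) had fallen and 452 (45.5%) were not called. Among the 10789 genes that were not called between 55 and 95 cells, 19.3% had risen and 33.5% had fallen from 4 to 28 cells, close to the risers' shares.

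**Figure D3:**
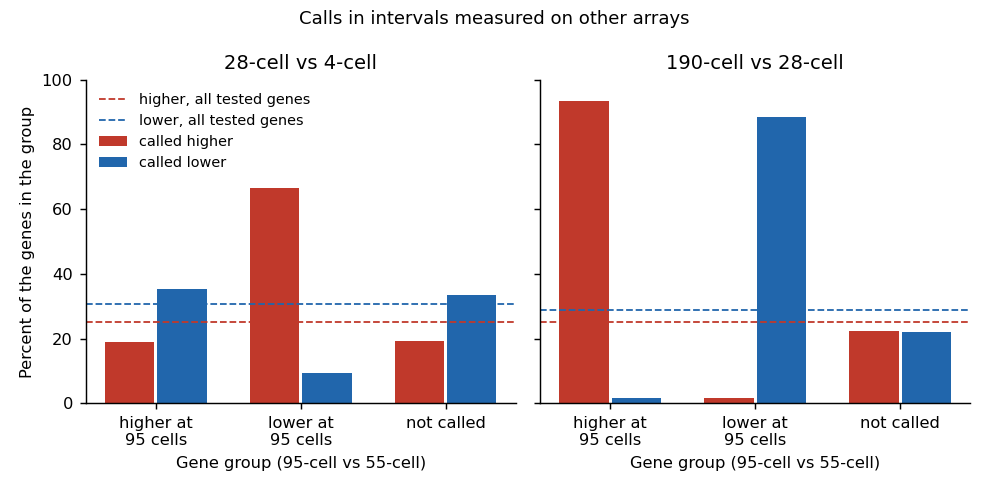
Percent of the genes called higher, called lower and not called between 55 and 95 cells that were called higher (red) or lower (blue) from 4 to 28 cells (left) and from 28 to 190 cells (right), with dashed lines at the shares of all tested genes. The bars for an earlier rise among fallers (66.6%) and for risers higher at 190 cells (93.3%) stand far above the lines. Lines for called higher lie near 25% in both panels. The interval of the right panel contains that from 55 to 95 cells.

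These shares were recomputed under 9 other settings. The share of fallers that had risen from 4 to 28 cells was between 56.1% and 89.8%, and that of all tested genes between 15.8% and 52%. The share of risers that were higher at 190 than at 28 cells was between 88.6% and 93.3%, and that of all tested genes between 11.8% and 28.4%. With separate fits for the 5 arrays and for the other 8, the values were 68.2% (24.4% of all genes) and 92.9% (23.3%). Without 28-cell B and 190-cell B, whose tags contradict their titles, they were 64.5% (24.4% of all genes) and 90.6% (20.9%). The share of risers that had fallen from 4 to 28 cells moved both ways with the setting. It was 55.7% with arrays centred on the median gene (42.5% of all genes) and 49.3% with probes detected on all arrays only (42.7%). When scaling rested on probes detected everywhere, it was 16.45% against 15.8% of all genes, and with spike-in scaling 2.86% against 6.69%.

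Combining both outside comparisons, which share the 28-cell arrays with each other, gave the courses on which the called genes lay. The most common among fallers was a pulse, higher at 28 than at 4 cells and lower at 190 than at 28 cells, with 1051 genes (63.3% of fallers, and 13.1% of all tested genes). Over the 5 stages in order their median level was -4.54, -0.30, -1.50, -3.96 and -4.61. By 95 cells the median lay within 1 log2 unit of its value at 4 cells. The 4-cell value lies below -3.54, the lowest detected level on 4-cell B, the array with the highest detection limit. The limits of the 95-cell arrays were lower. Of all 1661 fallers, 694 were detected on no 4-cell array, against 3553 of all 13443 tested genes. A return to the starting level was therefore not measured. Seen from the course, 1051 of 1766 pulsed genes (59.5%) fell in this interval and 9 (0.51%) rose. The course requires a net fall from 28 to 190 cells, which contains this interval. A share of falls above that of all tested genes is therefore built in.

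Another 283 fallers (17%) were not called between 4 and 28 cells and then lower at 190 cells. Their median held at -1.13 on both the 4-cell and the 28-cell arrays, then stood at -1.90, -3.58 and -3.63 at the following stages. Genes that declined throughout, lower at 28 than at 4 cells and lower again at 190 cells, were 135 (8.13%) of the fallers. They started bright, at a median of 3.08 at 4 cells, and stood at 0.17, -1.27, -2.76 and -3.22 at the later stages. Of all 947 genes on this declining course, 14.3% fell between 55 and 95 cells, near the 12.4% of all tested genes, against 59.5% of the pulsed genes.

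Among risers the largest class, 432 genes (43.5%), was not called between 4 and 28 cells and then higher at 190 cells. Their median level was -4.88 and -4.89 in 4-cell and 28-cell embryos, and then -3.70, -1.39 and -0.38 in 55-cell, 95-cell and 190-cell embryos. On the array with the highest detection limit the lowest detected level was -3.54, so an early change at such levels could go unseen. Of all 993 risers, 416 were detected on no 4-cell array and 253 on no 28-cell array with flags. Over all 13443 tested genes these counts were 3553 and 964. The largest step lay between 55 and 95 cells, the interval that chose these genes. A further 326 risers (32.8%) dropped from 4 to 28 cells and then recovered. Their medians were -1.01, -3.44, -2.47, -0.45 and 0.080, in order of stage. The remaining large class, 168 genes (16.9%), rose in both outside comparisons, and had medians of -4.36, -1.72, -0.79, 1.03 and 1.91 at these 5 stages. Of the 1371, 1339 and 648 genes on these courses in all, 31.5%, 24.3% and 25.9% were called as rises between 55 and 95 cells, where 7.39% of all tested genes were. These courses end higher at 190 than at 28 cells, so a share above that of all tested genes is built into them.

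The groups were chosen by the change between the 95-cell and 55-cell arrays, so their medians there are a description. For risers they were -0.57 and -0.62 on 95-cell A and B, against -2.94, -2.70 and -2.46 on 55-cell A, B and C. For fallers 95-cell A and B gave -3.91 and -4.03, against -1.46, -1.78 and -2.01 for 55-cell A, B and C. In both groups 55-cell A lay furthest from the 95-cell arrays and 55-cell C nearest. The arrays of the other stages entered the choice only through the shared estimate of the spread and the probe filter. On the 190-cell arrays risers stood at 0.12, 0.13 and 0.25 and fallers at -4.28, -4.01 and -4.39. On the 28-cell arrays risers stood at -3.77, -3.76 and -3.63 and fallers at -0.68, -0.69 and -0.79.

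**Figure D4:**
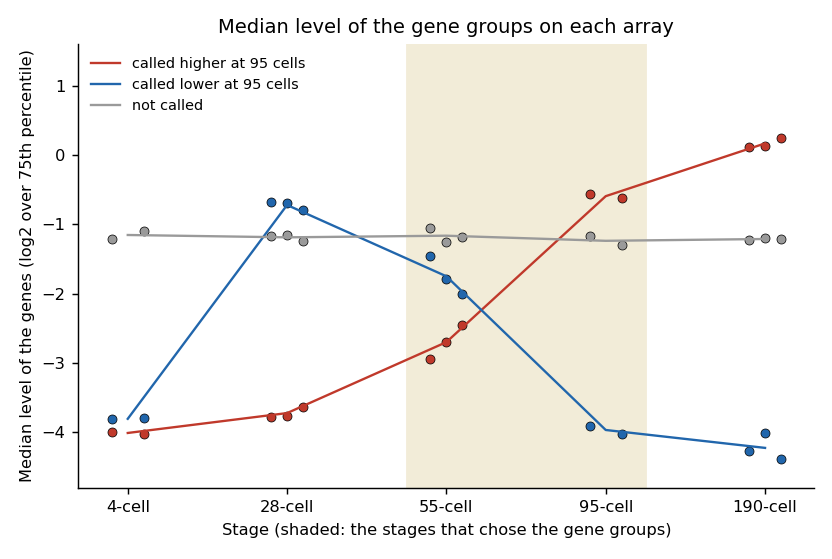
Median level of the genes called higher (red), called lower (blue) and not called (grey) between 55 and 95 cells, on each array (points) and averaged over the arrays of a stage (lines), in log2 intensity over the array's 75th percentile. Fallers peak at 28 cells near -0.7 and lie near -4 at both 4 and 95 cells, whereas risers start near -4 and reach about 0.2 at 190 cells.

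The comparison could be repeated within each scan date on separate arrays. On the first date 95-cell A was set against the mean of 55-cell A and B, and on the second 95-cell B against 55-cell C. Risers and fallers were called from these same arrays, so only values over all tested genes are given. Over all 13443 tested genes the log2 changes of the dates had r = 0.831, and over the 8894 genes whose probes were all above background on the 5 arrays r = 0.846, both across genes. The median change was -0.097 on the first date and -0.24 on the second. A test of whether the change differed between dates (limma, stage by date, without 28-cell C) called 2 genes, neither of them among the 2654, and gave an unadjusted p under 0.05 for 458 genes (3.41%). That test had 4 residual degrees of freedom and only 1 array at 95 cells on each date, so it had little power. Its few calls do not show that the change was the same on both dates. With scan date as a block, again without 28-cell C, 1247 genes rose and 1964 fell.

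**Figure D5:**
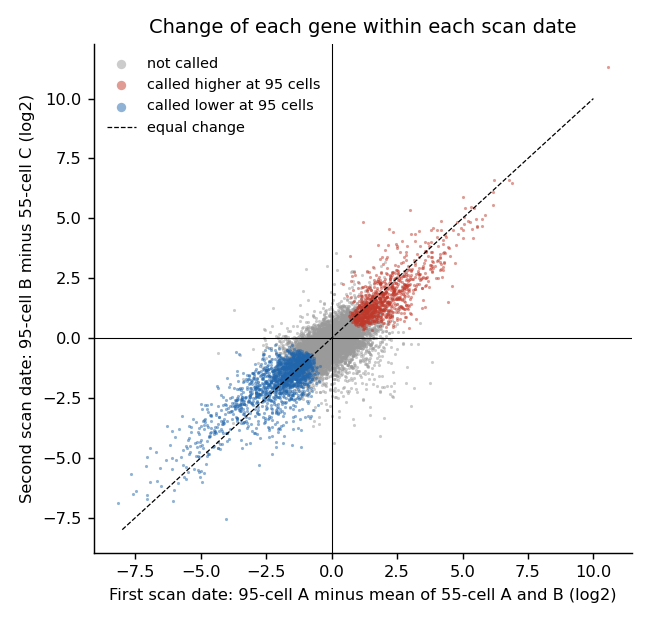
Each point is a tested gene, with its 95-cell minus 55-cell change on the first scan date on the x axis and on the second scan date on the y axis (both log2), red for called higher, blue for called lower and grey for not called. The points follow the dashed line of equal change (r = 0.831 across genes), and the colours come from calls on these same arrays.

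Different probes of a gene gave like changes. Probes of a gene carry letters in order of rank, and 8540 genes kept both of the best ranked, A and B, whose log2 changes had r = 0.882 across genes. Each of the 2 probes alone called 1193 genes, 1191 of them in the same direction. All kept probes pointed the same way in 7333 of the 8794 tested genes with several (83.4%). The counts were 762 of 781 for risers and 1138 of 1146 for fallers, which were called on the mean of these probes. Probes left out by the filter are not in these counts.

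The interval from 95 to 190 cells is also 40 min long, so the changes over both intervals were compared directly. The difference of the changes was called for 318 genes, 2.37% of those tested, with 60 above 0 and 258 below. Both changes use the 95-cell arrays with opposite sign, so an offset shared by these arrays enters the difference with double weight and is not in its SE. The median difference of all tested genes was -0.23 on the log2 scale, on the side of the larger count. The count rested on scaling and on single arrays: 257 genes (81 above 0 and 176 below) were called with arrays centred on the median gene, 4 (3 above and 1 below) with spike-in scaling, 26 without 95-cell B and 105 without 95-cell A. By the signs of the fitted changes, 165 of the 318 genes went down and then up, 78 down and further down, 44 up and further up, and 31 up and then down.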

How the data were processed

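Values came from the deposited series table, whose intensity per probe equals the scanner output on 12 arrays (relative tolerance 1e-06); per the file headers, Agilent Feature Extraction 9.5.3.1 had subtracted background and a spatial trend. The flags used (well above background, saturated, outlier) are other columns of the same scanner files, per the file headers. The scanner file under 28-cell C was a copy of that of 190-cell C, so its flags were not used. The depth of an array is not a count, and the number of arrays limits precision. Columns of other series numbered 0.

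Log2 intensity was centred on each array's 75th percentile. Of 42034 probes, 207 with an outlier flag were left out, and 24781 that every array of 1 or more stages had above background were kept and averaged per gene (13443 genes, 4649 with 1 probe). Limma 3.58.1 in R 4.3.3 fitted all 13 arrays by stage. This fit was also run on simulated data with the spread of the main fit. There 2 of 67 planted 2-fold changes were called, 80.6% of 4-fold and 97% of 8-fold ones. Far fewer genes changed in those data than were called here. Per the labels, replicates were biological.

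The stages, the courses and the comparison were chosen with earlier results of these data known. The named genes were the 2 risers and 2 fallers with the largest change that had all kept probes above background on the 5 arrays, kept probes that changed in the same direction and no overlap between stages. Both risers met this with 1 kept probe. Gene lists by symbol were planned but could not be applied, since 0 array identifiers occur in the reference table. Same-lettered replicates had deviations from the stage means with r = 0.344 for A and -0.19 for B. With 2 arrays at 95 cells their deviations mirror each other, so this check could not decide pairing. The highest r, 0.512, was between 55-cell C and 95-cell B, scanned on the same date. The letters were not taken as pairs. Alternatives for scaling, background, filter, probe choice, arrays and blocks were run, and each of the 5 arrays was left out in turn. No arrays shared a slide, so slide was not fitted.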

Additional observations from a re-analysis of the deposited data

Results flagged for a closer look

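The change from 55 to 95 cells differed from that of the next 40 min, 95 to 190 cells, for 318 genes by a contrast of the fitted changes (limma, adjusted p under 0.05). It was drawn out because the same genes behaved differently in adjacent intervals. Of these genes, 258 had a more negative change in the first of the intervals and 60 a more positive one. The count fell to 4 genes with spike-in scaling, to 26 without 95-cell B and to 105 without 95-cell A. The cause was not tested.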

How the results depend on the processing

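The 4 named genes kept their direction and their call under all 22 or 23 alternatives in which they were tested, with log2 changes of 2.77 to 6.21 for WBGene00025774, 2.83 to 6.07 for WBGene00026396, -7.83 to -5.87 for WBGene00029637 and -6.91 to -5.80 for WBGene00029281. The lowest values of both risers, 2.77 and 2.83, came from averaging in a probe at background. All 4 genes had been chosen for large called changes on these same arrays, so keeping direction and call was largely built in. With 1 kept probe per riser, the choice among kept probes could not alter their values. Counts depended more on the setting. Of 2654 called genes, 993 up and 1661 down, with 383 and 659 at least 4-fold, spike-in scaling left 485 (210 up and 275 down, each of them at least 4-fold). No filter on dim probes gave 1492 (591 and 901), only probes detected on all arrays 1078 (452 and 626, with 87 and 195 at least 4-fold), and only probes detected on the 5 arrays 1652 (711 and 941, with 207 and 326). Fewer genes were tested with the last 2 filters, 8477 and 10509. Without the arrays with contradictory tags, 1173 genes (377 and 796) were called, with a single 95-cell array whose spread was taken from the other stages. Normexp gave 116 and 198 changes of at least 4-fold and a common floor 180 and 283. Leaving out 1 array gave 1392 to 2524 genes, 532 to 988 up and 860 to 1536 down, and leaves 1 array at 95 cells in 2 of these fits. The replicate block, though the letters were not taken as pairs, gave 3312 genes, of which 77.3% were also called without it. Detection counts moved from 38 gains to 164 and from 115 losses to 1466 within the first scan date, and ranged from 38 to 157 gains and 120 to 1457 losses when 1 array was left out. The difference between successive intervals was called for 26 to 105 genes without 1 of the 95-cell arrays and for 4 with spike-in scaling, against 318; these settings, like those without 28-cell B and 190-cell B, were chosen after seeing the data. The cause of these moves was not tested. Dim genes also limit the comparison: 77 risers had no probe above background at 55 cells and 130 fallers none at 95 cells, so their fitted folds are not measured sizes. Setting these genes to their bound lowered the medians to 3.08-fold among risers and 3.18-fold among fallers.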
